A study of Mus musculus with 24 samples.

Results

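The H2 genes are the major histocompatibility complex of the mouse, on chromosome 17. Every row whose symbol starts with H2- was taken, which gave 39 of the 27179 genes in the table. Of these, 28 are class I genes, 10 are class II genes, and H2-Ke6 encodes a steroid dehydrogenase named for its place in the complex. The signal was H3K27Ac, the acetylation of histone H3 at lysine 27 that marks active promoters and enhancers, read by chromatin immunoprecipitation and sequencing.

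The mouse brain, heart, kidney and liver were each studied in 2 preservations. FFPE tissue was fixed in 10% formalin and embedded in paraffin, and its chromatin was released at 95 °C for 20 min. Frozen tissue was flash frozen and its cores were crosslinked in 1% formaldehyde for 30 min. No genotype, strain, age, sex or treatment of the mice is given in the labels, and neither is the animal behind a column. Mice of different H2 haplotypes, if used for FFPE and Frozen tissue, cannot be told apart from the preservation. The labels list 16 H3K27Ac samples and 8 inputs, but the table has 8 columns without replicate numbers, so each group was taken as 1 library and no input was used. Total counts ran from 4404789 to 6164562 per library, and mitochondrial genes took 12.7% to 36.0% of them in FFPE libraries, against 4.52% to 5.62% in Frozen libraries. Values are log2 CPM, a gene's counts relative to the library size on a log2 scale, as scaled by the authors. In bulk tissue, fewer cells of a type and less signal per cell cannot be told apart.

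Class I molecules show peptides from inside the cell to CD8+ T cells and natural killer cells, and nearly all nucleated cells can make them. Their heavy chain pairs with beta-2-microglobulin. Class II molecules show peptides from taken-up material to CD4+ T cells and are made mainly by dendritic cells, B cells and macrophages, under the transactivator CIITA. Class I promoters respond to NF-kB and interferon, while both classes share an X and Y box module bound by RFX, CREB and NF-Y. Neurons are known for low class I levels.

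RefSeq promoter windows, from 250 bases before to 50 after the annotated start in GRCm38.p6 (the assembly of mm10), were found for 31 of the 39 genes. The last 200 bases before the start are shown for 6 class I genes and 2 class II genes. H2-K1 and H2-D1 are the classical class I genes. H2-Q4, H2-Q10, H2-M3 and H2-T23 stood out between organs, and H2-Aa and H2-Eb1 encode a chain each of the class II molecules I-A and I-E. Capitals mark matches, on either strand, to the Y box core ATTGG, the X1 box part GNNACNGAT, the X2 box core TGACG, the kappaB site GGGATTCCC and the interferon response part GAANNGAAA.
H2-K1, minus strand, chr17:34000334-34000533: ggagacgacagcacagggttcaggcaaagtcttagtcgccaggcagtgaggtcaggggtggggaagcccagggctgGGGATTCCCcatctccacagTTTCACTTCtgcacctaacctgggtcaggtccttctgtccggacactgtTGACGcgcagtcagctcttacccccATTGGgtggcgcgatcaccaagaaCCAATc
H2-D1, plus strand, chr17:35262894-35263093: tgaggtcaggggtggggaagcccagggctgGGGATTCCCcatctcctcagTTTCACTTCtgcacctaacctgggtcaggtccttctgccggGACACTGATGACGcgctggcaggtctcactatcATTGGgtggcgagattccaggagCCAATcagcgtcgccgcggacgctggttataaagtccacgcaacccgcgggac
H2-Q4, plus strand, chr17:35379417-35379616: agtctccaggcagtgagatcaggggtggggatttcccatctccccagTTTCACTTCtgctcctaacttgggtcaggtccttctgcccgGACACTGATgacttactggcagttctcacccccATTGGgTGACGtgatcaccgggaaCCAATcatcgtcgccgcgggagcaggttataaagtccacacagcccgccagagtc
H2-Q10, plus strand, chr17:35469889-35470088: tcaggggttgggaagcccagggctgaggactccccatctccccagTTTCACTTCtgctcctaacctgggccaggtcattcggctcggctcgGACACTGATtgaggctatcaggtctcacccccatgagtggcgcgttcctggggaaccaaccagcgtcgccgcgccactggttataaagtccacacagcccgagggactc
H2-M3, plus strand, chr17:37270034-37270233: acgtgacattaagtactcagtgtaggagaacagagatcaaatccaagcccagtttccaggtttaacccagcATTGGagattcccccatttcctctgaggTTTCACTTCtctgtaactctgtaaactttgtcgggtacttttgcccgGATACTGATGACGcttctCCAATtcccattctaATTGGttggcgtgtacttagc
H2-T23, minus strand, chr17:36032702-36032901: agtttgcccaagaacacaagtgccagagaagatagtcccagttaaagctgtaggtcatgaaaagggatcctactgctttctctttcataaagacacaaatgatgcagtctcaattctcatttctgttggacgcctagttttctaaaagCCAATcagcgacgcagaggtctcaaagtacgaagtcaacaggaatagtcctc
H2-Aa, minus strand, chr17:34287824-34288023: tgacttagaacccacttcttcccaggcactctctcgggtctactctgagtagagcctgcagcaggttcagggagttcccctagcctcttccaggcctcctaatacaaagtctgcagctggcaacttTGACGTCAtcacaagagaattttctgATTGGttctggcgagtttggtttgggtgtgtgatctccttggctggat
H2-Eb1, plus strand, chr17:34305667-34305866: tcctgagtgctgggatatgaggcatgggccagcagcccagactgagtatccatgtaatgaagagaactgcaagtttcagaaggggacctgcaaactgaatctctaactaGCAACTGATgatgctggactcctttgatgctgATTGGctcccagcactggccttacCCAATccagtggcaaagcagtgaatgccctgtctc

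The counts that follow are of genes with a match in any of their windows. The interferon response part matched in 8 of the 22 class I genes with a window, in none of the 8 class II genes, and in 7.52% of all 32851 mouse windows. It was found in H2-D1, H2-K1, H2-M2, H2-M3, H2-Q10, H2-Q4, H2-Q6 and H2-Q7. The kappaB site was in 4 class I genes (H2-D1, H2-K1, H2-Q6 and H2-Q7), in none of the class II genes, and in 0.353% of all windows. The X1 box part was in 13 class I genes and 5 class II genes, against 7.82% of all windows. The Y box core was in 19 class I genes and all 8 class II genes, against 37.4% of all windows. The X2 box core was in 11 class I genes and, among class II genes, only in H2-Aa, against 20.8% of all windows. A TATA box (TATAAA) was in 14 class I genes and in none of the class II genes, against 13.6% of all windows. In H2-D1, H2-M3 and H2-Q7 the X1 and X2 matches overlap by a base, the H2-Aa capitals hold 2 overlapping X2 cores, and the Y core and X1 part overlap at the H2-K1 start. A match is a run of letters and was not tested for binding.

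**Figure D1:**
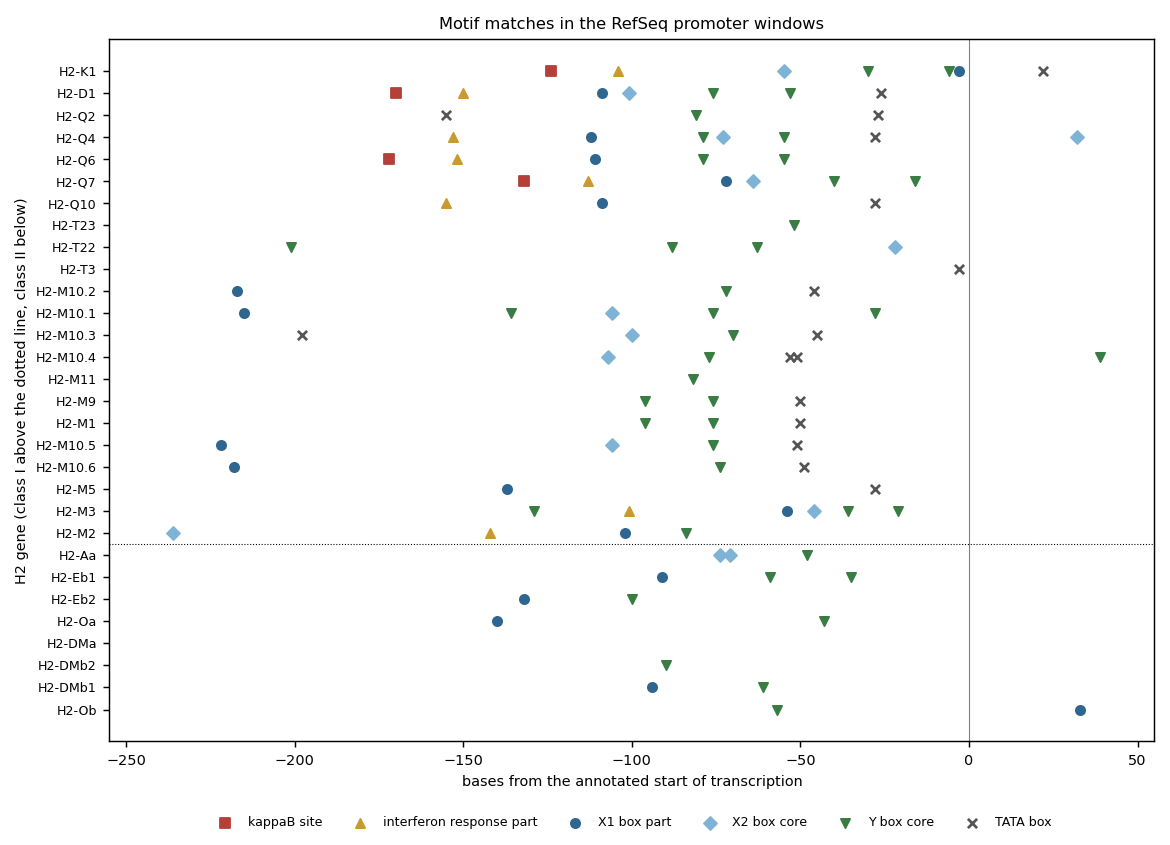
Matches to 6 motifs in the RefSeq promoter window of each class I gene (above the dotted line) and class II gene (below), 1 window a gene, by the position of the first base relative to the annotated start (x axis, bases). The kappaB squares and interferon triangles lie in class I rows alone, and Y box cores lie in both classes.

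Over their length, the classical class I genes and H2-T23 carried the highest acetylation among the MHC chains, and the spread within class I was wide. The mean CPM per kb of genomic span was 21.3 for H2-D1, 20.2 for H2-T23, which encodes the natural killer cell ligand Qa-1, and 12.4 for H2-K1. It was 10.9 for H2-Q10, which encodes a secreted class I chain known from liver, 10.6 for H2-Q4 and 9.43 for H2-M3, which presents formylated peptides. The 6 H2-M10 genes, known from sensory neurons of the vomeronasal organ, had 1.22 to 3.22 CPM per kb. Class II genes had 0.444 CPM per kb in H2-DMa to 3.57 CPM per kb in H2-Ea. Which part of a gene was counted is not stated in the labels, so these levels per kb are a guide.

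Summed over the 28 genes, class I reached 358, 771, 542 and 839 CPM in FFPE brain, heart, kidney and liver. In Frozen brain, heart, kidney and liver it reached 364, 828, 636 and 1289 CPM. The 10 class II genes summed to 86.1, 146, 171 and 137 CPM in FFPE brain, heart, kidney and liver, and to 104, 121, 129 and 99.8 CPM in the Frozen ones. Class I was thus lowest in brain and highest in liver in both preservations. In FFPE the lead of liver over heart rested on H2-Q10. This gene gave 472 of 3836 class I counts in liver FFPE and 78 of 3319 in heart FFPE. Class II was lowest in brain among FFPE libraries and lowest in liver among Frozen libraries. Class I counts were 4.16, 5.29, 3.18 and 6.11 times class II counts in FFPE brain, heart, kidney and liver, and 3.48, 6.85, 4.95 and 12.9 times in the Frozen ones. These ratios set 28 genes against 10. By the median gene, class II lay above class I in heart FFPE (3.57 against 3.44 log2 CPM) and kidney FFPE (3.88 against 3.61). It lay below class I in the other libraries. All 39 members had counts in every library, with a median of 69.5 counts per library for class I genes and 54 for class II genes. Such counts were common, since no library had more than 608 genes at 0 (heart Frozen). The class II median was 3.05 to 3.88 log2 CPM and the H2-M10 median 2.06 to 3.33. Both lay below the median of all tested genes (4.25 to 4.4) in every library. The class I median lay above it only in liver Frozen (4.91). With no input used, whether class II and H2-M10 genes exceeded background was not tested.

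**Figure D2:**
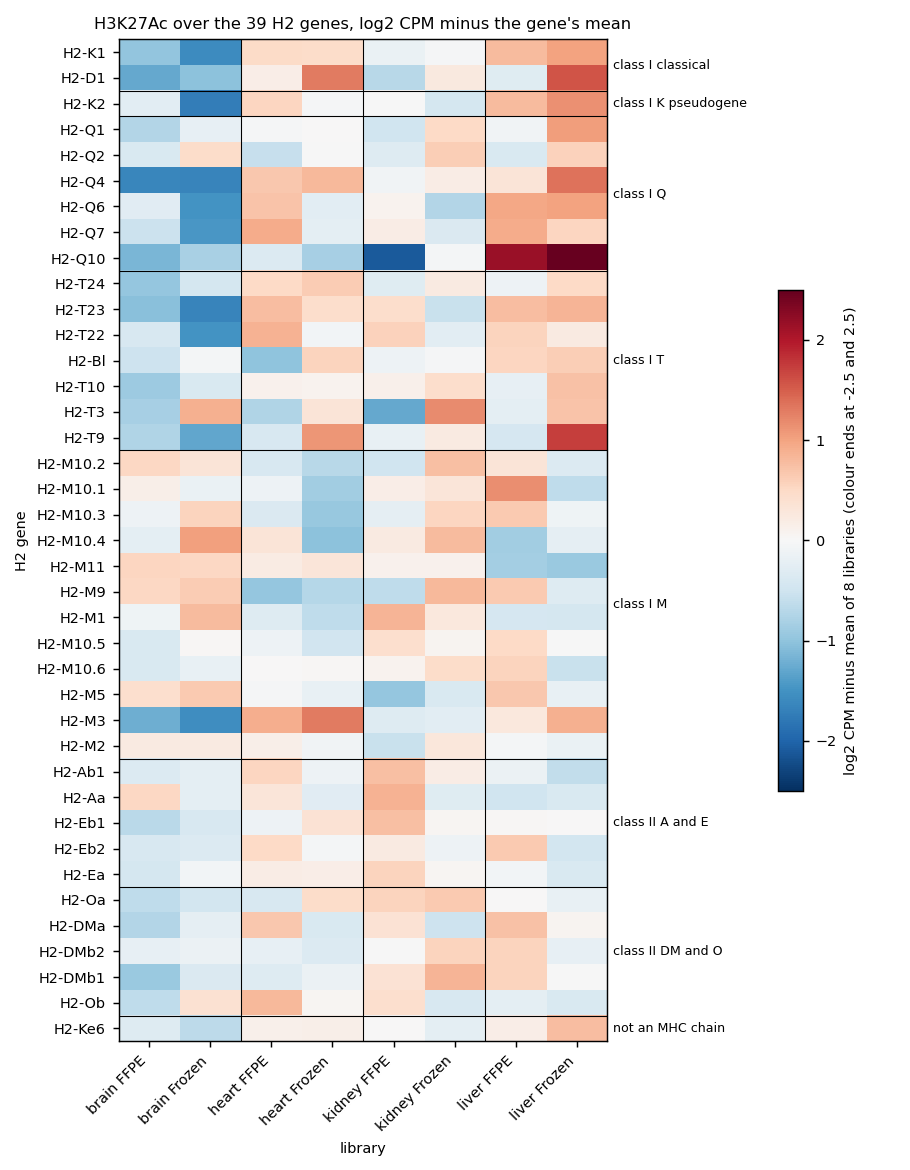
Each H2 gene (rows, grouped by class and region) in the 8 libraries (columns), as log2 CPM minus the mean of the gene over the libraries. The classical, Q and T genes and H2-M3 are mostly blue in brain and red in heart or liver, and the H2-M10 and class II rows are mixed in colour within organs.

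Brain had less H3K27Ac over the classical and many nonclassical class I genes than the other organs. In the fit over all 26944 tested genes (limma, organ and preservation as terms, Benjamini-Hochberg adjusted p under 0.05), 13 of 28 class I genes were lower in brain and none was higher. That is 46.4% of the class, beside 13.6% of all tested genes called lower in brain and 8.73% called higher. Both classical genes, 4 of 6 Q genes, 5 of 7 T genes, the pseudogene H2-K2 and 1 of 12 M genes were among them. The median difference was -0.50 (log2) over class I genes, against 0.04 over all tested genes. All 13 were lower in brain than the mean of the other organs in each preservation taken alone. The calls came from these same libraries, so this shared sign is no separate support.

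H2-K1 stood at 4.64 log2 CPM in brain FFPE and 4.06 in brain Frozen. In the other 6 libraries it ran from 5.47 to 6.64 with a median of 6.11. Both brain libraries lay below all the others, and the fitted difference was -1.71 ± 0.22 (SE, adjusted p = 3.97e-07). Here and below, an SE reflects mostly the variance shared by tested genes of like level, and less the gene's own spread.

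H2-D1 had 4.94 log2 CPM in brain FFPE and 5.20 in brain Frozen, against 5.53 to 7.80 in the other 6 libraries (median 6.43). There was again no overlap, with a difference of -1.53 ± 0.23 (adjusted p = 6.93e-06).

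The largest fitted decrease among the members was that of H2-Q4, a nonclassical gene of the Q region. It had 3.81 log2 CPM in brain FFPE and 3.78 in brain Frozen, against 5.35 to 6.80 elsewhere (median 5.93). The groups did not overlap, and the difference was -2.18 ± 0.23 (adjusted p = 1.32e-08).

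H2-M3 had 3.81 log2 CPM in brain FFPE and 3.48 in brain Frozen, against 4.72 to 6.34 elsewhere (median 5.61), a difference of -1.85 ± 0.23 (adjusted p = 3.86e-07). H2-T23 had 4.52 in brain FFPE and 3.91 in brain Frozen, against 5.01 to 6.40 elsewhere (median 6.16), a difference of -1.79 ± 0.22 (adjusted p = 2.98e-07). Neither gene's brain libraries overlapped the others. H2-M3 was the M gene that passed in brain. The 9 M genes of the vomeronasal family (H2-M1, H2-M9, H2-M11 and the 6 H2-M10 genes) gave no call in brain with limma, and none had an unadjusted p under 0.05.

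Qa-2, a membrane-anchored class I antigen, is the product of H2-Q7 and its neighbours. H2-Q7 had 4.40 log2 CPM in brain FFPE and 3.50 in brain Frozen, against 4.58 to 5.88 elsewhere (median 5.31), a difference of -1.33 ± 0.23 (adjusted p = 6.09e-05). H2-Q6 had 4.17 and 2.95 in the FFPE and Frozen brain, against 3.72 to 5.46 elsewhere (median 4.86), so its FFPE brain library overlapped. Its difference was -1.19 ± 0.27 (adjusted p = 0.00105). H2-K2 overlapped in the same way, with 4.46 in brain FFPE and 2.98 in brain Frozen, against 4.28 to 5.85 elsewhere (median 4.98). H2-K2 differed by -1.33 ± 0.27 (adjusted p = 0.000345). In these 3 genes the FFPE brain was thus higher than the Frozen brain.

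H2-T22 and H2-T10 are known as ligands of gamma delta T cells. H2-T22 had 4.56 log2 CPM in brain FFPE and 3.46 in brain Frozen, against 4.69 to 5.82 elsewhere (median 5.36), a difference of -1.26 ± 0.23 (adjusted p = 0.000106). H2-T10, a transcribed pseudogene in the reference annotation, had 4.22 and 4.73 in brain FFPE and Frozen, against 4.92 to 5.85 elsewhere (median 5.24), and differed by -0.86 ± 0.23 (adjusted p = 0.00577). Neither overlapped. H2-T24 had 3.95 in brain FFPE and 4.49 in brain Frozen, against 4.61 to 5.55 elsewhere (median 5.28), and differed by -0.93 ± 0.23 (adjusted p = 0.00286). H2-T9 had 3.36 and 2.81 in brain FFPE and Frozen, against 3.68 to 5.83 elsewhere (median 4.13), and differed by -1.36 ± 0.34 (adjusted p = 0.00311). H2-T24 and H2-T9 did not overlap either.

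H2-Q10 had 3.39 log2 CPM in brain FFPE and 3.73 in brain Frozen, against 2.44 to 7.68 in the other libraries (median 4.35), and passed with -1.31 ± 0.31 (adjusted p = 0.00179). FFPE kidney lay below both brain libraries, and the 2 liver libraries were the highest of the others. Averaged over FFPE and Frozen, H2-Q10 had 3.56 in brain, 3.47 in kidney, 3.95 in heart and 7.18 in liver. The mean of the other organs includes liver, so this call does not set brain apart from kidney.

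The remaining 15 class I genes did not pass in brain. H2-Q1 came nearest, at -0.63 ± 0.26 (adjusted p = 0.0748). Genes with the interferon response part in their promoter windows were mostly among those lower in brain. Of the 8 class I genes with a match, 7 were called lower in brain, all but H2-M2. The 7 include H2-Q10, whose brain average was not below that of kidney. Of the 14 class I genes whose windows held none, H2-T22 and H2-T23 were called. A further 4 called genes (H2-K2, H2-T10, H2-T24 and H2-T9) have no window. Of the class I genes with the other motifs, those called lower were 4 of 4 for the kappaB site and 7 of 13 for the X1 box part. They were 6 of 11 for the X2 box core, 8 of 19 for the Y box core and 4 of 14 for the TATA box. All 8 genes with the interferon response part also hold the X1 box part. The class I genes with the X1 box part alone were H2-M10.1, H2-M10.2, H2-M10.5, H2-M10.6 and H2-M5. None of these was called lower in brain, and the part of either motif was not tested. Several of these promoters are near copies, with 85.3% identical bases between H2-D1 and H2-Q10 and 85% between H2-Q6 and H2-Q7, so the matches are not independent.

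Of the 10 class II genes, 2 were lower in brain, or 20% beside the 13.6% over all genes, and none was higher. The median difference over class II was -0.44, and 9 of 10 genes had a negative one, against 18 of 28 class I genes. H2-Eb1, the I-E beta chain, had 3.81 log2 CPM in brain FFPE and 4.08 in brain Frozen, against 4.35 to 5.24 elsewhere (median 4.52), a difference of -0.71 ± 0.26 (adjusted p = 0.0474). H2-DMb1, a chain of the DM molecule that loads peptide onto class II, had 2.67 and 3.24 in brain FFPE and Frozen, against 3.27 to 4.44 elsewhere (median 3.77), a difference of -0.85 ± 0.32 (adjusted p = 0.0498). Both genes were lower in the brain libraries than in all the others, but both calls were lost without the variance trend. H2-DMb1 also lost its call without any 1 of the libraries other than liver Frozen, and H2-Eb1 without brain FFPE, brain Frozen, heart Frozen, kidney FFPE or liver Frozen.

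With a prior variance that did not follow the mean, 8 class I genes and no class II gene passed in brain. Markers of some cell types also differed in brain. Endothelial cells are known for high class I levels, and 9 of 12 endothelial markers were lower in brain, with 397 and 406 summed CPM in brain FFPE and Frozen, against 485 to 1296 in the other 6 libraries. Neuron markers were higher in brain in 8 of 8, and hepatocyte markers were lower in 5 of 8. Of 17 macrophage and microglia markers 1 was lower in brain, and their sums were 281 and 279 CPM in brain FFPE and Frozen, against 308 to 349 elsewhere. The part of these cell types in the result was not tested.

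**Figure D3:**
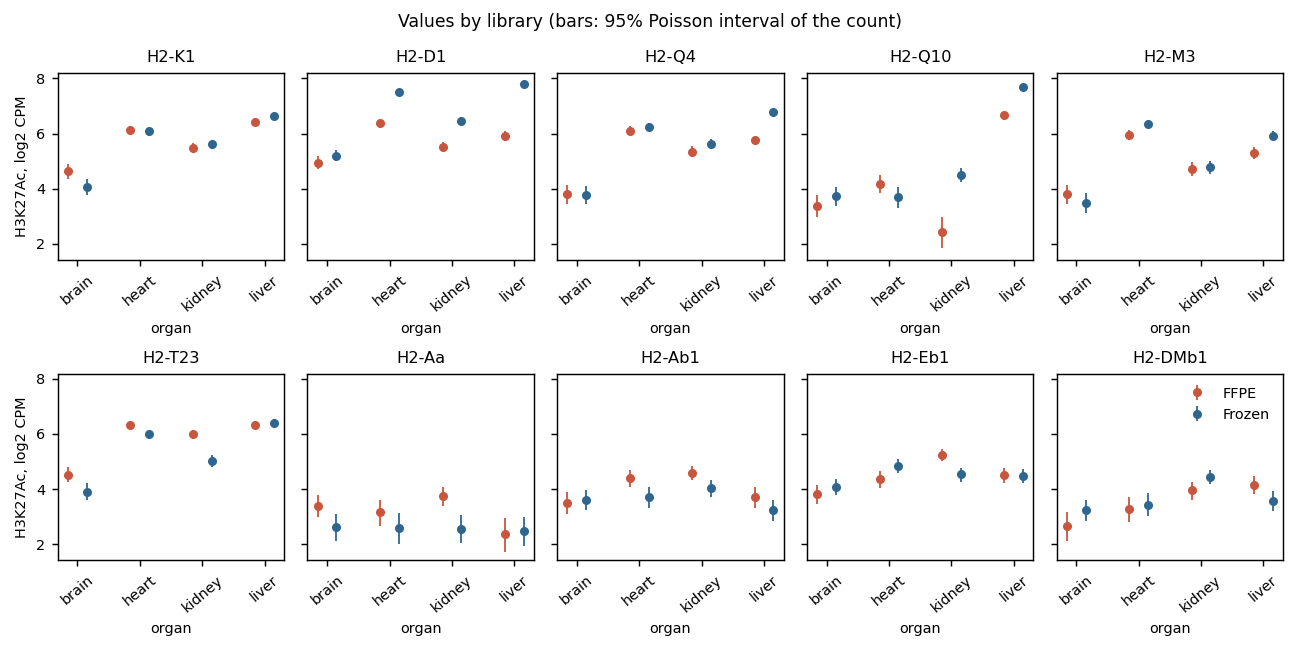
H3K27Ac (y axis, log2 CPM) of 6 class I and 4 class II genes in the 4 organs, FFPE left of Frozen, with the 95% Poisson interval of the count as bars. The brain points of H2-K1, H2-Q4, H2-M3 and H2-T23 lie below all others, and H2-Q10 stands at 6.69 in liver FFPE and 7.68 in liver Frozen, above its other libraries.

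The genes that load class I molecules had the same direction in brain. Of 14 class I antigen processing genes, 12 were lower in brain and none was higher. B2m, the common light chain, had 3.11 log2 CPM in brain FFPE and 3.37 in brain Frozen, against 4.35, 5.36 and 5.27 in FFPE kidney, heart and liver and 4.64, 5.56 and 6.16 in the Frozen ones. Its difference was -1.99 ± 0.24 (adjusted p = 2.07e-07). The immunoproteasome subunits Psmb8 and Psmb9 differed by -1.68 and -1.36 on the log2 scale, the peptide transporter gene Tap1 by -1.46, and the proteasome activator gene Psme1 by -1.02. Several of these genes also lie in the complex.

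Among 9 class I transactivators and interferon factors, 5 were lower in brain and 1 was higher. Irf1, which binds the interferon response element, had -2.06 ± 0.24 (adjusted p = 8.8e-08). Nlrc5, the class I transactivator, had 5.61 log2 CPM in brain FFPE and 5.87 in brain Frozen, within the 5.23 to 5.91 of the other libraries. Of 24 interferon-stimulated genes 13 were lower in brain and none higher, led by Bst2 (-1.98), Cxcl9 (-1.76) and Igtp (-1.50). Of 11 class I-like genes outside the complex 5 were lower, with Fcgrt, the neonatal Fc receptor, at -1.81 and Hfe, which regulates iron uptake, at -1.66.

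On the class II side partners were called in both directions in brain. Over all tested genes 13.6% were called lower there and 8.73% higher. Of 8 class II transactivators and promoter factors, 1 was lower, Rfxank (-0.78), a subunit of RFX. Of 9 tested class II antigen processing genes, Ctsl was lower (-0.87) and Cd40 (0.91) and Marchf1 (0.66) were higher. Cd74, the invariant chain, had 3.58 log2 CPM in brain FFPE and 3.87 in brain Frozen, against 3.42 to 4.39 elsewhere. As a further scale, 4 of 16 housekeeping genes were also lower in brain.

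In heart, 6 of 28 class I genes were higher than the mean of the other organs and none was lower. That is 21.4% of the class, beside 9.42% of all tested genes called higher in heart and 7.31% called lower. H2-M3 led, at 5.94 log2 CPM in FFPE heart and 6.34 in Frozen heart, above every library of the other organs, and a difference of 1.47 ± 0.23 (adjusted p = 2.06e-05). The other 5 overlapped with libraries of other organs. The mean of the other organs includes brain, where all 6 genes were called lower. Averaged over FFPE and Frozen, liver lay above heart for H2-K1 (6.53 against 6.10), H2-T23 (6.36 against 6.16) and H2-Q4 (6.27 against 6.18). H2-Q4 had 6.11 and 6.25 in heart FFPE and Frozen and differed by 0.99 ± 0.23 (adjusted p = 0.00177). H2-D1 had 6.39 and 7.51 and differed by 0.97 ± 0.23 (adjusted p = 0.00264). H2-T23 (6.32 and 5.99), H2-T24 (5.41 and 5.55) and H2-K1 (6.12 and 6.09) differed by 0.80, 0.75 and 0.63 on the log2 scale (adjusted p = 0.0105, 0.0208 and 0.0406).

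No class II gene passed in heart by limma, and none had an unadjusted p under 0.05. Without the Frozen heart library 2 class I genes passed, and without the FFPE heart library 3 did, as also without the Frozen kidney library. With no variance trend 1 passed, and the H2-K1 call was also lost under both other scalings. Endothelial markers were higher in heart in 10 of 12, with 1276 and 1296 summed CPM in heart FFPE and Frozen, against 397 to 707 elsewhere, and their part in the result was not tested.

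The class I partners were higher in heart too, in 5 of 14 antigen processing genes and in none lower. Psmb8 (1.13), the transporter genes Tap2 (1.05) and Tap1 (0.88), and B2m (0.98) led them. Of the interferon-stimulated genes 6 of 24 were higher, led by Oasl2 (1.54) and Rsad2 (1.12). Ciita, the class II transactivator, was lower in heart, with a difference of -0.74 ± 0.21 (adjusted p = 0.0113), and Mill2, a class I-like gene outside the complex, was higher by 2.08.

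Liver had the highest summed class I signal, in FFPE by way of H2-Q10, which had the largest fitted difference. H2-Q10 had 6.69 log2 CPM in liver FFPE and 7.68 in liver Frozen, against 2.44 to 4.50 in the other 6 libraries (median 3.72). Its difference of 3.53 ± 0.31 (adjusted p = 1.23e-10) was the largest of any member in any comparison. In all, 9 of 28 class I genes were higher in liver than the mean of the other organs and 1 was lower. These are 32.1% and 3.57% of the class, beside 11.2% of all tested genes called higher in liver and 9.73% called lower.

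H2-K1 had 6.43 log2 CPM in liver FFPE and 6.64 in liver Frozen, against 4.06 to 6.12 elsewhere (median 5.54), with no overlap. The difference was 1.20 ± 0.22 (adjusted p = 6.41e-05). H2-Q6 had 5.42 and 5.46 in liver FFPE and Frozen, against 2.95 to 5.17 elsewhere, and differed by 1.31 ± 0.27 (adjusted p = 0.000313). H2-K2 had 5.50 and 5.85 in liver FFPE and Frozen, against 2.98 to 5.26 elsewhere, and differed by 1.28 ± 0.27 (adjusted p = 0.000467). Liver libraries were thus highest for all of H2-Q10, H2-K1, H2-Q6 and H2-K2.

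The other 5 overlapped with other organs. The mean of the other organs includes brain, where all 9 genes higher in liver were called lower. Averaged over FFPE and Frozen, liver lay below heart for H2-M3 (5.61 against 6.14) and H2-D1 (6.86 against 6.95). H2-Q4 had 5.75 log2 CPM in liver FFPE and 6.80 in liver Frozen and differed by 1.12 ± 0.23 (adjusted p = 0.000311). H2-T23 (6.32 and 6.40), H2-Q7 (5.87 and 5.49), H2-D1 (5.91 and 7.80) and H2-M3 (5.30 and 5.92) differed by 1.07, 0.97, 0.85 and 0.77 on the log2 scale (adjusted p = 0.000421, 0.00206, 0.00666 and 0.0156). H2-M11, of the vomeronasal family, was the gene that was lower, with 1.33 and 1.25 in liver FFPE and Frozen, against 2.28 to 2.71 elsewhere. It differed by -1.18 ± 0.43 (adjusted p = 0.0462) on 191 counts over all 8 libraries, and lost the call without any 1 of them.

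The liver count rested on 1 library. Without liver Frozen, the deepest of the 8, 2 class I genes passed, and with no variance trend 5 did. H2-K1 and H2-Q10 passed in every alternative that tested them. No class II gene passed in liver by limma or had an unadjusted p under 0.05.

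In liver, class I partners were again higher. B2m differed by 1.32 ± 0.24 (adjusted p = 8.54e-05), and 5 of 14 antigen processing genes were higher, among them Psmb9 (0.97), the chaperone genes Calr (0.78) and Canx (0.76), and Tap1 (0.74). Irf1 was higher by 1.27. Ciita had 6.76 log2 CPM in liver FFPE and 7.16 in liver Frozen, against 5.23 to 5.84 elsewhere, and differed by 1.50 ± 0.21 (adjusted p = 9.51e-07), while the class II genes it is known to activate gave no call there. Outside the complex, the secreted class I-like gene Azgp1 was higher by 3.35 and the lipid-presenting Cd1d1 by 2.48. Within it, the complement genes C4b, Cfb and C2 were higher by 2.67, 2.27 and 2.21. Hepatocyte markers were higher in 8 of 8, and of the macrophage and microglia markers 2 of 17 were higher. Of 12 endothelial markers 4 were lower in liver and none was higher. The part of these cell types was not tested.

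Kidney had the highest class II sum in both preservations, while its class I sum lay between those of brain and heart. H2-Q10 alone of the class I genes passed, at 2.44 log2 CPM in kidney FFPE and 4.50 in kidney Frozen, against 3.39 to 7.68 elsewhere. The fitted difference was -1.43 ± 0.31 (adjusted p = 0.00231). This gene is 3.57% of the class, beside 2.03% of all tested genes called lower in kidney and 3.19% called higher. The mean of the other organs includes liver, where H2-Q10 was highest. Averaged over FFPE and Frozen, it had 3.47 log2 CPM in kidney, 3.56 in brain, 3.95 in heart and 7.18 in liver. The 2 kidney libraries were far apart, and without kidney FFPE no class I gene passed. No class II gene passed in kidney by limma, although 3 of 10 had an unadjusted p under 0.05 and 9 of 10 had a positive difference.

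Across the 4 organs together, 13 of 28 class I genes and H2-DMb1 among the 10 class II genes differed between organs by limma's F test, beside 34.7% of all tested genes. H2-Ke6 differed as well (adjusted p = 0.0291), but this call was lost in 6 alternatives, its brain call in 7 and its liver call in 8, each time including both other scalings and the fit with no variance trend. It had 5.34 and 5.01 log2 CPM in brain FFPE and Frozen, with a difference of -0.65 ± 0.22, and 5.83 and 6.44 in liver FFPE and Frozen, with a difference of 0.63 ± 0.22, against 5.42 to 5.80 in heart and kidney.

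**Figure D4:**
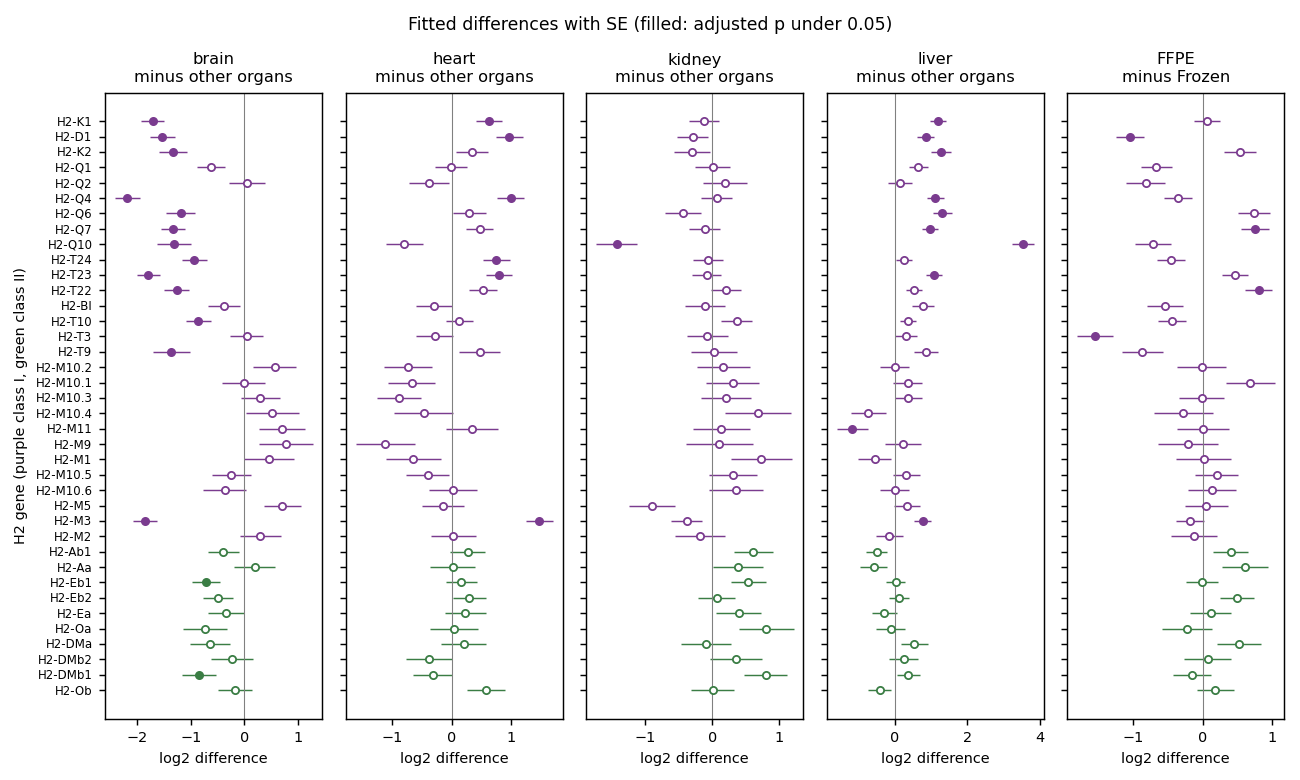
Fitted log2 differences with SE (x axis) of each class I gene (purple) and class II gene (green), for each organ minus the other organs and for FFPE minus Frozen, filled where adjusted p was under 0.05. Filled class I points lie left of 0 in brain (13) and mostly right of 0 in heart (6) and liver (9 of 10), and filled class II points occur in brain alone (2).

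The class II genes that gave no call had these values. H2-Aa, the I-A alpha chain, had 3.39, 3.16, 3.74 and 2.36 log2 CPM in FFPE brain, heart, kidney and liver, and 2.62, 2.59, 2.57 and 2.48 in the Frozen ones. H2-Ab1, the I-A beta chain, had 3.50, 4.39, 4.59 and 3.70 in FFPE brain, heart, kidney and liver, and 3.61, 3.71, 4.03 and 3.24 in the Frozen ones. Kidney FFPE was the highest library for both chains of I-A.

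H2-Ea, a transcribed pseudogene in the reference annotation, had 2.80, 3.43, 3.80 and 3.18 log2 CPM in FFPE brain, heart, kidney and liver, and 3.18, 3.41, 3.30 and 2.87 in the Frozen ones. H2-Eb2, a beta chain gene next to H2-Eb1, had 3.81, 4.71, 4.43 and 4.86 in the FFPE organs in that order and 3.87, 4.16, 4.09 and 3.74 in the Frozen ones. The 8 libraries of H2-Ea and of H2-Eb2 lay within 1.00 and 1.12 log2 units of each other.

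The DM and DO molecules work in loading, DM as the exchange factor and DO as its inhibitor. H2-DMa had 2.29, 3.71, 3.40 and 3.77 log2 CPM in FFPE brain, heart, kidney and liver, and 2.81, 2.64, 2.52 and 3.10 in the Frozen ones. H2-DMb2 had 2.52, 2.51, 2.71 and 3.28 in the FFPE organs and 2.58, 2.37, 3.27 and 2.52 in the Frozen ones. H2-DMa was higher in FFPE in heart, kidney and liver by more than the counting interval, and H2-DMb2 had no order of organs shared by the preservations.

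H2-Oa had 1.78, 2.02, 2.98 and 2.42 log2 CPM in FFPE brain, heart, kidney and liver, and 1.96, 2.88, 3.07 and 2.23 in the Frozen ones. H2-Ob had 3.30, 4.76, 4.36 and 3.70 in the FFPE organs and 4.32, 3.99, 3.54 and 3.55 in the Frozen ones. Brain was lowest for H2-Oa in both preservations, but for H2-Ob it was lowest in FFPE and highest in Frozen.

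Class II genes ranged over 0.92 to 1.77 log2 units across the libraries (median 1.36), and class I genes over 0.85 to 5.24 (median 1.92). Dendritic cell markers summed to 238 to 328 CPM over the 8 libraries and B cell markers to 151 to 263 CPM. The difference between the classes was not tested, since their members were chosen together and share libraries.

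FFPE and Frozen tissue differed in 4 class I genes, 2 in each direction. That is 7.14% of the class lower in FFPE and 7.14% higher, beside 1.91% of all tested genes called lower in FFPE and 2.0% called higher. The model takes the organs as replicates, with 4 libraries a side. No class II gene passed by limma, and 1 had an unadjusted p under 0.05, against 14 of 28 class I genes.

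H2-T3 encodes the thymus leukaemia antigen, a class I molecule of intestinal epithelium whose expression in thymus is known to differ between mouse strains. It had 3.07, 3.16, 2.63 and 3.65 log2 CPM in FFPE brain, heart, kidney and liver, against 4.79, 4.23, 5.08 and 4.62 in the Frozen ones. All FFPE libraries lay below all Frozen ones, and the difference was -1.55 ± 0.26 (adjusted p = 0.000219). In counts, the kidney pair was 32 in FFPE and 190 in Frozen, a ratio of 0.181 (95% counting interval 0.12 to 0.264).

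H2-D1 had 4.94, 6.39, 5.53 and 5.91 log2 CPM in FFPE brain, heart, kidney and liver, against 5.20, 7.51, 6.47 and 7.80 in the Frozen ones. FFPE was lower in each organ, although organs made the groups overlap, and the difference was -1.05 ± 0.20 (adjusted p = 0.000823). The gap was -0.26 in brain and -1.88 in liver, where the FFPE to Frozen ratio was 0.271 (counting interval 0.237 to 0.309). For H2-K1, the other classical gene, the fitted difference was 0.06 ± 0.19 (adjusted p = 0.919), with 4.64, 6.12, 5.47 and 6.43 in FFPE brain, heart, kidney and liver, against 4.06, 6.09, 5.61 and 6.64 in the Frozen ones.

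H2-T22 and H2-Q7 were higher in FFPE in each of the 4 organs. H2-T22 had 4.56, 5.82, 5.54 and 5.52 log2 CPM in FFPE brain, heart, kidney and liver, against 3.46, 4.89, 4.69 and 5.19 in the Frozen ones, a difference of 0.80 ± 0.20 (adjusted p = 0.0154). H2-Q7 had 4.40, 5.88, 5.14 and 5.87 in the FFPE organs, against 3.50, 4.71, 4.58 and 5.49 in the Frozen ones, a difference of 0.75 ± 0.20 (adjusted p = 0.0265). Both lost the call when any 1 of the 4 heart and kidney libraries was left out.

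Some class I genes without a call moved by more than the counting interval within organs. H2-Q6 had FFPE to Frozen ratios of 2.35, 1.97 and 1.77 in brain, heart and kidney and 0.974 in liver, where the interval held 1. H2-T9 had ratios of 1.47, 0.351, 0.759 and 0.223 in brain, heart, kidney and liver. Its intervals held 1 in brain (0.949 to 2.29) and kidney (0.563 to 1.02). H2-Q10 had 0.236 in kidney and 0.504 in liver. In all, 6 of 28 class I genes were lower in FFPE in each of the 4 organs and 2 were higher in each, while no class II gene held a direction in all 4. Over all tested genes these shares were 10.4% lower and 11.8% higher. Class I genes are alike in sequence, and the labels do not say how reads that match several places were treated, so counts of near copies such as H2-Q6 and H2-Q7 may be split or shared.

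**Figure D5:**
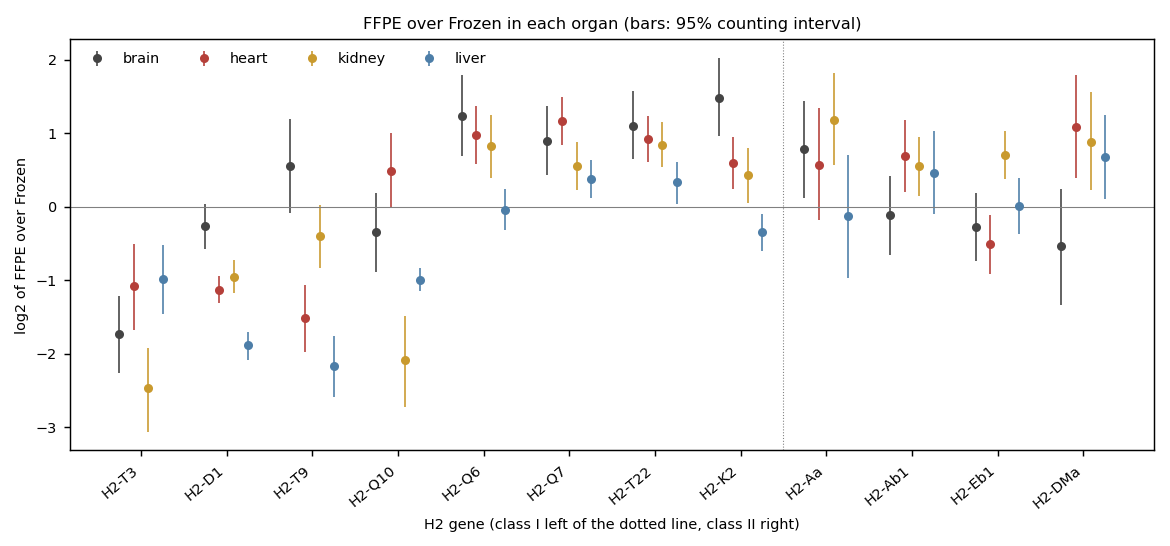
The FFPE to Frozen ratio (y axis, log2) of 8 class I genes (left of the dotted line) and 4 class II genes in each organ, with 95% counting intervals. H2-T3 lies below 0 in all 4 organs, H2-T22 and H2-Q7 lie above it, and H2-K2 runs between 1.48 in brain and -0.35 in liver.

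The summed class I signal differed between FFPE and Frozen by -0.02, -0.10, -0.23 and -0.62 log2 units in brain, heart, kidney and liver, and the class II sum by -0.28, 0.27, 0.41 and 0.46. Relative to counts outside mitochondrial genes, whose share differed between the preservations, the class I gaps were -0.09, 0.12, -0.24 and -0.33 and the class II gaps -0.34, 0.49, 0.40 and 0.76. With no variance trend none of the 4 genes passed, and quantile normalization gave 7 class I genes. Among their partners, 13 of the 14 class I antigen processing genes had a negative FFPE minus Frozen difference. Their median was -0.23, against 0.02 over all tested genes. None of the 14 passed by limma, and 1 had an unadjusted p under 0.05. Of 24 interferon-stimulated genes, 18 had a positive difference and 1, Ifit3, passed by limma. Ifit3 had 4.74, 5.82, 6.11 and 6.03 log2 CPM in FFPE brain, heart, kidney and liver, against 3.65, 4.55, 4.37 and 4.08 in the Frozen ones. Its limma difference was 1.51 ± 0.20 (adjusted p = 6.94e-06). In the complex, Ager was higher in FFPE (0.96), and Rxrb, Ring1 and Bag6 were lower (-0.77, -0.76 and -0.65).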

How the data were processed

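H3K27Ac was measured in FFPE and Frozen tissue of 4 mouse organs. The submitters' processing notes name Bowtie2, featureCounts, limma and the build mm10, without versions. The table deposited by the authors gives each gene as log2 CPM. All values (100%) returned whole counts within 0.001, as log2 of the count plus 0.5 over an effective library size. Those counts served to state depth (4404789 to 6164562 per library), Poisson intervals and exact 95% intervals of count ratios, which cover counting error only. Total counts set the precision of each value.

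The table has 8 columns for 16 labelled H3K27Ac samples, so each column was taken as 1 library, a change from a design with replicate columns. The labels do not say that libraries came from separate animals, so p-values measure only spread between these libraries, pooled largely over genes. limma 3.58.1 in R 4.3.3 was fitted to the log2 values of 26944 genes with a count. Organ and preservation were terms, with a variance trend and 3 residual degrees of freedom. The prior variance carried a median of 30.6 degrees of freedom, so each SE reflects mostly the variance shared by genes of like level. Contrasts were each organ minus the mean of the other 3, FFPE minus Frozen, and any organ difference, two-sided, with Benjamini-Hochberg adjustment over all genes and a threshold of 0.05. The code was tested on simulated data. Motifs were searched on both strands of RefSeq promoter windows, and 38 of 39 identifiers matched the RefSeq table.

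All H2 members were described, with values in every library for the classical class I genes, the class II genes and every called member, and at most 5 called genes, those with the largest change, for each other list and comparison. A few uncalled partners (Nlrc5, Cd74) and within-organ ratios were named after their values had been seen. The members and lists were chosen with earlier results of these data known. Alternatives were other scalings, no variance trend, at least 80 counts, each library left out, and members without near copies. The 17 lists covered class I and class II transactivators, antigen processing, class I-like genes, interferon-stimulated genes, other genes of the complex, cell type markers and housekeeping genes.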

Additional observations from a re-analysis of the deposited data

Results flagged for a closer look

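For 8 H2 genes, FFPE and Frozen differed in opposite directions in 2 organs, each by more than the counting interval of its pair of libraries. These are 20.5% of the 39 H2 genes, beside 21.4% of all 26944 tested genes, so the share is near the background. With 1 pair of libraries per organ the difference between organs was not tested. Values are FFPE minus Frozen, in log2 CPM. Among class I genes, H2-K1 was 0.57 in brain and -0.21 in liver, where it turned to 0.23 and 0.20 under the 2 other scalings. The pseudogene H2-K2 was 1.48 in brain and -0.35 in liver. H2-M10.3 was 0.76 in liver and -0.75 in kidney, and H2-M10.4 was 1.35 in heart and -1.26 in brain. Among class II genes, H2-Eb1 was 0.71 in kidney and -0.50 in heart, H2-DMb1 was 0.58 in liver and -0.49 in kidney, and H2-Ob was 0.83 in kidney and -1.02 in brain. H2-Ke6, which is no MHC chain, was 0.32 in brain and -0.61 in liver. The animals behind these libraries are not given in the labels.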

How the results depend on the processing

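No paired analysis was possible because the columns carry no replicate number. The planned removal of members with near-identical proteins was not run, since no protein table was used here, and promoter windows at least 80% identical took its place, a choice made after seeing the data. Counts are of H2 genes called. Quantile normalization and setting all libraries to the same median and spread each gave 4 class II genes in brain (main result 2), 2 class I genes in kidney (1), 7 class I genes for FFPE against Frozen (4) and 2 class II genes for any organ difference (1). Without a variance trend, class I gave 8 in brain (13), 1 in heart (6), 0 in kidney, 5 in liver (10), 0 for FFPE and 8 for any organ (13), and class II gave 0 in brain and for any organ. Removing 13 near copies left 15 class I genes, with 8 called in brain, 4 in heart, 0 in kidney, 5 in liver, 2 for FFPE and 8 for any organ, a fall that the removal of called genes fixes and that is no test of stability. Leaving out each library, with the organ's other library assumed to vary like the rest, gave ranges, for class I, of 9 to 14 in brain, 2 to 9 in heart, 0 to 1 in kidney, 2 to 11 in liver, 2 to 6 for FFPE and 11 to 14 for any organ, and for class II of 0 to 1 in brain and for any organ. The lowest FFPE counts came without kidney FFPE or kidney Frozen. Class II stayed at 0 in heart, kidney, liver and FFPE against Frozen under these alternatives. Of 53 gene calls, 48 held under either scaling, 21 without the trend and 53 with at least 80 counts, and none of them reversed. The uncalled FFPE minus Frozen value of H2-K1 in liver, -0.21, reversed to 0.23 with quantile normalization and 0.20 with the same median and spread. The cause was not tested. Counts per library went down to 7 in class I genes and 16 in class II genes, which limits the precision of such genes.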

Other observations

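Class I-like genes outside the H2 symbols also differed between organs. Azgp1 stood at 6.10 log2 CPM in liver FFPE and 6.68 in liver Frozen, against 2.43 to 3.80 in the other libraries, and Cd1d1 at 6.44 and 7.17 in liver FFPE and Frozen, against 3.85 to 5.07. Mill2 was higher in heart (2.08 log2, adjusted p = 9.81e-07 in limma) and lower in liver (-1.43, adjusted p = 0.000137). Cd1d1 was lower in kidney (-1.03, adjusted p = 0.00324 in limma), where H2-Q10 was the called class I gene. The mean of the other organs includes liver, where both genes were highest. Cd1d1 had 3.99 and 4.37 log2 CPM in kidney FFPE and Frozen, above the 3.85 and 4.27 of brain FFPE and Frozen. Gabbr1, a GABA receptor gene of the complex, was higher in brain (1.43) and lower in liver (-1.15), and Mog, a myelin gene there, was higher in brain (1.06). These contrasts share libraries and were not compared with each other.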
